A study of Mus musculus with 6 samples.

Results

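The lysosomal genes described here are 37 mouse genes that encode soluble lysosomal hydrolases, their activators, lysosomal membrane proteins and the transcription factors TFEB and TFE3. They were chosen by name from a table of 36333 genes, with the condition of a mean of at least 1 TPM (transcripts per 1e+06 transcripts) over the 6 libraries. All 37 met it, the lowest being Tfeb at 32.2 TPM, so no member was left out. Polyadenylated RNA was sequenced from bone marrow derived macrophages, which are primary cells grown out of C57BL/6 marrow with macrophage colony-stimulating factor. One group was given 100 µM stearic acid, a saturated fatty acid, for 24 h (3 libraries), and the other received the ethanol vehicle for the same time (3 libraries). All cells were wild type, and the labels record no genetic change in either group. The labels do not say whether replicates were separate animals or separate cultures, and every p-value therefore reflects library-to-library spread alone, which may be technical.

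Lysosomes are acidic organelles in which hydrolases break down glycans, lipids and proteins taken up by endocytosis and phagocytosis or delivered by autophagy. Soluble hydrolases reach them mostly by a mannose phosphate tag, and the limiting membrane carries glycoproteins, a proton pump and transporters for the products. TFEB and TFE3 are related transcription factors that are held in the cytosol by phosphorylation at the lysosomal surface and, once in the nucleus, bind an E-box-like element in many lysosomal promoters. Inherited loss of many of these hydrolases causes storage diseases in which macrophages are among the cells that fill with undigested substrate.

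Library depth, estimated from the steps between deposited RPKM values of small non-coding genes, was 64.0 to 76.4 times 1e+06 reads or read pairs with stearic acid. With vehicle it was 58.1 to 80.8 times 1e+06. By these estimates 1 TPM stood for 19.1 to 27.7 reads or read pairs per kilobase. The stearic acid libraries differed more among themselves than the vehicle libraries did (lowest correlation across genes 0.988 within stearic acid and 0.996 within vehicle). Markers of macrophages were abundant: the 9 listed summed to 23612 to 29267 TPM with stearic acid and 33232 to 34117 TPM with vehicle, and of them 5 fell, 1 (Cd68) rose and 3 did not pass. Lyz2, with a mean of 19817.5 TPM with stearic acid and 26281.5 TPM with vehicle, made up most of that sum. Its fall was lost with median-of-ratios scaling and quantile normalization, and each of these calls was lost on dropping at least 1 of the libraries. Lymphoid markers summed to 1.28 to 1.80 TPM with stearic acid and 2.64 to 2.95 TPM with vehicle, with Cd3e, Cd3d, Nkg7 and Ncr1 at 0 in every library. Of these 8 markers 7 were under 1 TPM in every library, and the remaining one, Cd79b, fell. Neutrophil and progenitor markers summed to 11.5 to 12.4 TPM with stearic acid and 7.47 to 9.57 TPM with vehicle, and stromal markers to 2.70 to 5.44 TPM with stearic acid and 4.80 to 7.71 TPM with vehicle. Of the 10 neutrophil and progenitor markers 7 were under 1 TPM in every library, S100a8 and Mmp8 rose, and Cebpe did not pass. Dendritic cell markers summed to 93.7 to 119 TPM with stearic acid and 120.4 to 138 TPM with vehicle, with H2-Aa, H2-Ab1, H2-Eb1 and Ciita lower and Itgax higher. The other 3 of that list, Flt3, Zbtb46 and Xcr1, were under 1 TPM in every library. The part of these markers in the results was not tested. In bulk RNA a change in the number of cells of a kind cannot be told apart from a change in RNA per cell.

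Together the 37 genes made up 1.95, 1.79 and 1.81% of all TPM in stearic acid replicates 1 to 3, against 1.74, 1.60 and 1.74% in vehicle replicates 1 to 3. TPM is normalised for length, so levels can be set beside each other between genes. Psap, the prosaposin gene, had by far the highest mean over the 6 libraries at 4661 TPM, followed by Grn at 2774, Lamp1 at 1658 and Lipa at 1532 TPM, and the lowest were Arsa at 42.4, Idua at 41.2 and Tfeb at 32.2 TPM. The genes were grouped by substrate into 16 that act on glycans, 7 on lipids and 4 on peptides, beside 6 for membrane proteins, 2 others (Grn and Pld3) and the 2 regulators. The lipid class summed to 8512, 8003 and 7866 TPM with stearic acid and to 6699, 6048 and 6777 TPM with vehicle, with no overlap. Psap and Lipa carried that sum: the other 5 genes of the class had negative log2 fold changes, and the class median was -0.07. The glycan class summed to 3073, 2664 and 2794 TPM with stearic acid and to 3109, 2877 and 3056 TPM with vehicle, and there the groups overlapped.

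**Figure D1:**
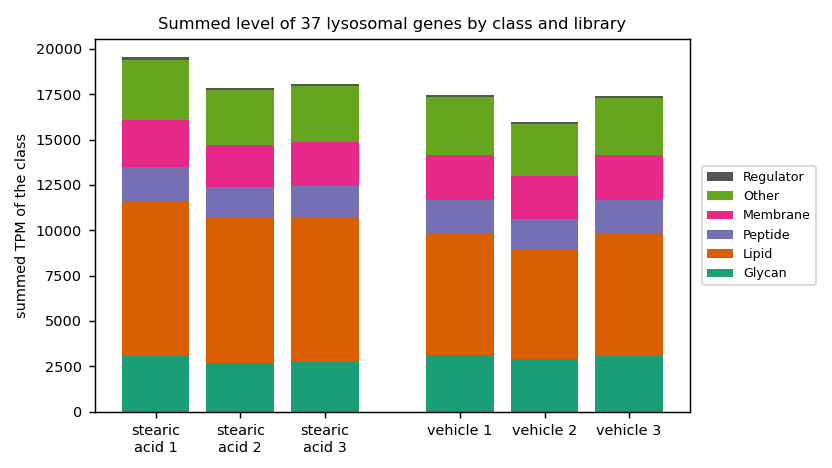
Summed TPM of the 37 lysosomal genes in each library (bars, vertical axis from 0), stacked by class. The lipid class is 7866 to 8512 TPM in the stearic acid libraries and 6048 to 6777 TPM in the vehicle libraries, while the other classes stay close in height.

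With stearic acid, 8 of the 37 genes rose, 5 fell and 24 did not pass (limma on log2(TPM + 1) over all genes averaging 1 TPM or more, Benjamini-Hochberg adjusted p under 0.05). Of all 11551 genes tested 24.7% passed, 12.8% higher and 11.9% lower, against 35.1% of the members, 21.6% higher and 13.5% lower. The risers were Pld3, Psap, Gla, Lipa, Tfeb, Gaa, Neu1 and Ctsa, and the fallers were Arsb, Man2b1, Ids, Ppt1 and Manba. The median log2 fold change was 0.01 over the members and -0.03 over all tested genes, and the members ranged from -0.58 for Arsb to 0.68 for Pld3. The groups did not overlap in 19 members (51.4%), 12 higher and 7 lower, against 44.6% of all tested genes. Risers and fallers stood side by side in the glycan and lipid classes. The peptide class, the 2 others and the 2 regulators held 1 riser each and 0 fallers, and the membrane class held neither.

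**Figure D2:**
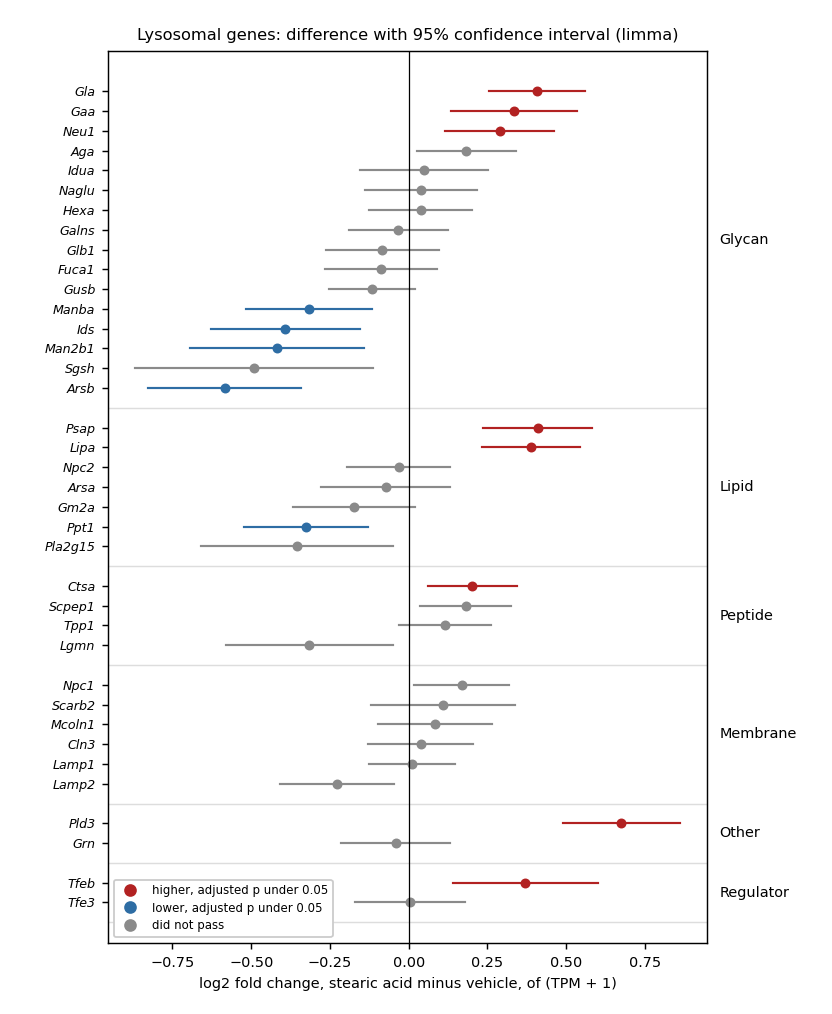
Log2 fold change of (TPM + 1), stearic acid minus vehicle, for each lysosomal gene (points) with its 95% confidence interval (lines), ordered within class; red marks genes that rose, blue genes that fell, grey genes that did not pass. The values run from -0.58 (Arsb) to 0.68 (Pld3), and the glycan and lipid classes hold points of both colours.

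The 3 stearic acid libraries were not equally far from vehicle. In all 5 fallers replicate 1 lay nearest to the vehicle mean and replicate 2 farthest, whereas among the 8 risers replicate 3 lay nearest in 6 and replicate 1 in 2. Without stearic acid replicate 1 the same fit called 9 members higher and 10 lower (24.3 and 27.0%), against 19.2 and 24.2% of all genes tested in that fit. The additions were Aga as higher, and Sgsh, Pla2g15, Lgmn, Lamp2 and Gm2a as lower. Dropping vehicle replicate 1, 2 or 3 left 6, 4 and 4 members higher (16.2, 10.8 and 10.8%) and 1, 1 and 0 lower (2.7, 2.7 and 0%). Of all genes in those fits 5.96, 3.32 and 4.19% were higher and 3.34, 1.43 and 1.18% lower. Dropping stearic acid replicate 2 left 7 higher and 3 lower (18.9 and 8.11%, against 9.04 and 8.15% of all genes). Dropping stearic acid replicate 3 left 4 higher and 1 lower (10.8 and 2.7%, against 5.05 and 3.65% of all genes). Pld3, Gla, Lipa and Psap passed whichever single library was left out. Without the filter on low values, only Gla, Lipa and Pld3 passed as higher and Arsb as lower. These were 8.11 and 2.7% of the members, against 3.11 and 1.64% of all genes in that fit. Vehicle replicate 2 had the lowest vehicle value in 31 of the 37 genes and in 11 of the 13 that passed. The matching share of all tested genes was not counted, so whether this order is particular to the members was not tested. Dropping vehicle replicate 2 moved the median log2 fold change of the members from 0.0106 to -0.0292. The median of all genes tested in each fit moved the same way, from -0.0276 to -0.0559.

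In the lipid class Psap and Lipa, its most abundant genes, rose, 1 gene fell and 4 did not pass. Psap encodes prosaposin, the precursor of the saposins that present sphingolipids to their hydrolases (gene 19156, chromosome 10, 60277628 to 60302600, GRCm38). It stood at 5614, 5259 and 5076 TPM with stearic acid against 4185, 3667 and 4162 TPM with vehicle, a mean of 5316 ± 274 against 4005 ± 293 TPM (SD, n = 3 each). All stearic acid libraries were above all vehicle libraries (log2 fold change 0.41, SE 0.08, limma adjusted p = 0.0095). The call was lost with quantile normalization (log2 0.15, limma adjusted p = 0.24) and without the filter on low values (0.091), over a range of 0.0019 to 0.24 across all alternatives. Lipa encodes lysosomal acid lipase, which frees cholesterol and fatty acids from cholesteryl esters and triglycerides (gene 16889, chromosome 19, 34492316 to 34527474). Its level was 1700.5, 1762 and 1744 TPM with stearic acid against 1326, 1239 and 1418 TPM with vehicle, again without overlap. The means were 1735 ± 31.6 and 1328 ± 89.8 TPM (log2 0.39, SE 0.07, limma adjusted p = 0.0077), and the call held in every alternative.

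The single faller of the lipid class was Ppt1, palmitoyl-protein thioesterase, which removes fatty acyl chains from proteins (gene 19063, chromosome 4, 122836077 to 122859175). It stood at 141, 113 and 130.2 TPM with stearic acid against 153, 161 and 167 TPM with vehicle (log2 -0.33, SE 0.09, limma adjusted p = 0.028). The groups did not overlap, but the fall passed only with all 6 libraries or without stearic acid replicate 1 (limma adjusted p 0.056 to 0.109 in the other 5). Ppt1 shares 128 bases with Cap1, which averaged 912 TPM, so reads in that stretch may not be separable. Pla2g15, the lysosomal phospholipase A2, was at 159, 106 and 124 TPM with stearic acid against 174, 148 and 172 TPM with vehicle and did not pass (log2 -0.35, limma adjusted p = 0.084). Its groups overlapped through stearic acid replicate 1, and without that library it passed (limma adjusted p = 0.00045). Gm2a, the GM2 activator, did not pass either (log2 -0.17), and Npc2, which hands cholesterol to NPC1, and Arsa, the sulfatide sulfatase, had log2 values of -0.03 and -0.07, with 95% intervals of -0.20 to 0.13 and -0.28 to 0.13.

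Among the enzymes that act on glycans, 3 of 16 rose and 4 fell. Gla, α-galactosidase A, which cleaves terminal galactose from globo-series glycolipids (gene 11605, chromosome X, 134588169 to 134601005), was at 147, 156 and 143 TPM with stearic acid against 108, 110.2 and 117 TPM with vehicle. The means were 149 ± 6.75 and 112 ± 4.78 TPM (log2 0.41, SE 0.07, limma adjusted p = 0.0059), with no overlap, and Gla passed in every alternative. Gaa, acid α-glucosidase, the lysosomal glycogen enzyme (gene 14387, chromosome 11, 119267963 to 119285458), was at 91.2, 86.0 and 83.9 TPM with stearic acid against 75.1, 60.7 and 71.3 TPM with vehicle (log2 0.33, SE 0.09, limma adjusted p = 0.027). Neu1, the lysosomal sialidase (gene 18010, chromosome 17, 34931253 to 34937297), was at 71.1, 68.5 and 64.1 TPM with stearic acid against 59.5, 51.9 and 54.9 TPM with vehicle (log2 0.29, SE 0.08, limma adjusted p = 0.027). In both genes every stearic acid library was above every vehicle library. Gaa lost its call when stearic acid replicate 3 or vehicle replicate 2 or 3 was dropped (limma adjusted p up to 0.079), and Neu1 lost its call when stearic acid replicate 3 or any vehicle library was dropped (up to 0.094).

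The fallers of the glycan class were a pair of sulfatases of glycosaminoglycans and a pair of mannosidases. Arsb, arylsulfatase B, which acts on dermatan and chondroitin sulfate (gene 11881, chromosome 13, 93771679 to 93943016), was at 111, 84.5 and 107 TPM with stearic acid against 153, 139 and 161 TPM with vehicle. The means were 101 ± 14.2 and 151 ± 11.1 TPM (log2 -0.58, SE 0.11, limma adjusted p = 0.0090), and the fall missed the threshold without vehicle replicate 3 (0.055). Ids, iduronate sulfatase (gene 15931, chromosome X, 70343069 to 70385834), was at 57.0, 43.7 and 51.8 TPM with stearic acid against 64.3, 63.0 and 73.1 TPM with vehicle (log2 -0.39, SE 0.10, limma adjusted p = 0.028). In both sulfatases every stearic acid library was below every vehicle library.

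Man2b1, lysosomal α-mannosidase, which trims N-glycans (gene 17159, chromosome 8, 85082730 to 85098739), was at 386, 269 and 319 TPM with stearic acid against 449, 394 and 449 TPM with vehicle (log2 -0.42, SE 0.12, limma adjusted p = 0.037). Manba, β-mannosidase, which takes the last mannose of the same chains (gene 110173, chromosome 3, 135485611 to 135571404), was at 62.4, 50.6 and 56.9 TPM with stearic acid against 71.1, 66.6 and 74.1 TPM with vehicle (log2 -0.32, SE 0.09, limma adjusted p = 0.032). Both were without overlap, with stearic acid replicate 1 nearest to vehicle. Man2b1 and Ids lost their calls when stearic acid replicate 3 or any vehicle library was dropped (limma adjusted p up to 0.13 and 0.11), and Manba lost its call in the same fits and on dropping stearic acid replicate 2 (up to 0.12).

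The other 9 glycan enzymes did not pass. Sgsh, heparan N-sulfatase, had the widest spread: 59.8, 35.2 and 43.8 TPM with stearic acid against 67.0, 56.8 and 68.6 TPM with vehicle (log2 -0.49, limma adjusted p = 0.060). Only stearic acid replicate 1 reached into the vehicle range, and without it Sgsh passed (log2 -0.69, limma adjusted p = 0.00011). Aga, glycosylasparaginase, was at 47.4, 53.1 and 52.6 TPM with stearic acid against 44.6, 44.9 and 44.6 TPM with vehicle, without overlap (log2 0.18, limma adjusted p = 0.084), and passed without stearic acid replicate 1 (0.023). Gusb, β-glucuronidase, was at 590.4, 562 and 569 TPM with stearic acid against 644, 614 and 608 TPM with vehicle, also without overlap (log2 -0.12, limma adjusted p = 0.18). The other 6, Hexa, Glb1, Naglu, Galns, Idua and Fuca1, lay between -0.09 and 0.05 with overlapping groups; for Hexa, the α subunit of β-hexosaminidase and the most abundant of the class, the 95% interval of the log2 fold change was -0.12 to 0.20.

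Of the 4 peptidases 1 rose. Ctsa, cathepsin A, a carboxypeptidase that also stabilises NEU1 and β-galactosidase in a complex (gene 19025, chromosome 2, 164832872 to 164841032), was at 657, 670.4 and 658 TPM with stearic acid against 597, 544 and 587 TPM with vehicle. The groups did not overlap (log2 0.20, SE 0.06, limma adjusted p = 0.045). This was the call nearest to the threshold and it held on dropping stearic acid replicate 1 but no other library (limma adjusted p 0.078 to 0.15 in the other 5, and 0.060 with a replicate block). Ctsa overlaps Pltp over 1515 bases and Neurl2 over 725, and Pltp averaged 458 TPM, so part of its reads may not be separable. Its partner Glb1, β-galactosidase, was at 118, 99.5 and 107 TPM with stearic acid against 120, 109 and 115 TPM with vehicle and did not pass (log2 -0.08), whereas Neu1, the third of the complex, rose.

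Scpep1, a serine carboxypeptidase, was at 363, 338 and 333 TPM with stearic acid against 312, 295 and 304 TPM with vehicle. It missed the threshold (log2 0.18, limma adjusted p = 0.066) and passed with RPKM (0.029) and median-of-ratios scaling (0.032). Tpp1, tripeptidyl peptidase, had no overlap either (log2 0.12, limma adjusted p = 0.21). Lgmn, legumain, which cleaves after asparagine and processes cathepsins, was at 689, 481 and 577 TPM with stearic acid against 744, 680.2 and 728 TPM with vehicle (log2 -0.32, limma adjusted p = 0.077). As in Sgsh and Pla2g15, stearic acid replicate 1 alone lay within the vehicle range, and without it Lgmn passed (0.00073).

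None of the 6 membrane protein genes passed with limma. At an unadjusted limma p under 0.05 there were 2, Npc1 (higher) and Lamp2 (lower), against 4671 of all 11551 tested genes in either direction. Lamp1, the most abundant glycoprotein of the limiting membrane, was at 1714, 1630.4 and 1648 TPM with stearic acid against 1693, 1602 and 1662 TPM with vehicle. The means, 1664 ± 44.0 and 1652 ± 46.5 TPM, differed by less than either SD (log2 0.01, 95% interval -0.13 to 0.15). Lamp2, its homologue that also serves chaperone-mediated autophagy, was at 312, 261 and 278 TPM with stearic acid against 319, 327 and 349 TPM with vehicle. The groups did not overlap, with replicate 1 again the nearest of the stearic acid libraries (log2 -0.23, SE 0.08, limma adjusted p = 0.065), and Lamp2 passed as lower without that library (0.0051) and with quantile normalization (0.043). The files give 1 value per gene, so the splice forms of Lamp2 were not told apart.

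Npc1, the transporter that moves cholesterol out of the lysosome (chromosome 18), was at 181, 181 and 184 TPM with stearic acid against 163, 152 and 171 TPM with vehicle. It missed the threshold (log2 0.17, SE 0.07, limma adjusted p = 0.091), although the groups did not overlap, and it passed with RPKM (0.027) and median-of-ratios scaling (0.028). Npc1 overlaps Rmc1, which averaged 38.2 TPM, over 8982 bases. Mcoln1, the lysosomal calcium channel, and Cln3, a membrane protein lost in a childhood storage disease, were at 69.4 ± 0.178 and 65.2 ± 0.303 TPM with stearic acid against 65.7 ± 6.37 and 63.6 ± 4.90 TPM with vehicle, with overlapping groups. Scarb2, the receptor that carries glucocerebrosidase to lysosomes, had a log2 fold change of 0.11 with a 95% interval of -0.12 to 0.34.

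Pld3 had the largest change of the 37 genes. It encodes an endolysosomal membrane-anchored exonuclease of single-stranded nucleic acids (gene 18807, chromosome 7, 27531367 to 27553229). It was at 393, 436 and 392 TPM with stearic acid against 277, 232 and 256 TPM with vehicle, means of 407 ± 25.2 and 255 ± 22.7 TPM. The lowest stearic acid library was well above the highest vehicle library (1.6-fold by the means, log2 0.68, SE 0.08, limma adjusted p = 0.0019), and the call held in every alternative. Grn, progranulin, a secreted and lysosomal precursor of granulins, was at 2958, 2563 and 2685 TPM with stearic acid against 2913, 2633 and 2892 TPM with vehicle, with overlapping groups (log2 -0.04, 95% interval -0.21 to 0.13).

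The regulators differed from each other. Tfeb (gene 21425, chromosome 17, 47737037 to 47792416) was at 39.2, 35.4 and 34.5 TPM with stearic acid against 31.1, 24.0 and 28.9 TPM with vehicle, means of 36.4 ± 2.52 and 28.0 ± 3.62 TPM. Every stearic acid library was above every vehicle library (log2 0.37, SE 0.10, limma adjusted p = 0.031). The rise was lost without the filter on low values. It was also lost on dropping stearic acid replicate 3 or either of vehicle replicates 2 and 3, with limma adjusted p reaching 0.089. Tfe3 (gene 209446, chromosome X, 7762530 to 7775202), the more abundant of the pair, was at 97.0, 93.5 and 94.2 TPM with stearic acid against 99.0, 85.4 and 100.3 TPM with vehicle. Its groups overlapped and its means were 94.9 TPM in both (log2 0.00, 95% interval -0.17 to 0.18). These are mRNA levels; the phosphorylation and location of the proteins, by which both are mainly regulated, were not measured. The related factors Mitf and Tfec, not among the 37, did not pass either (log2 0.08 and -0.15).

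**Figure D3:**
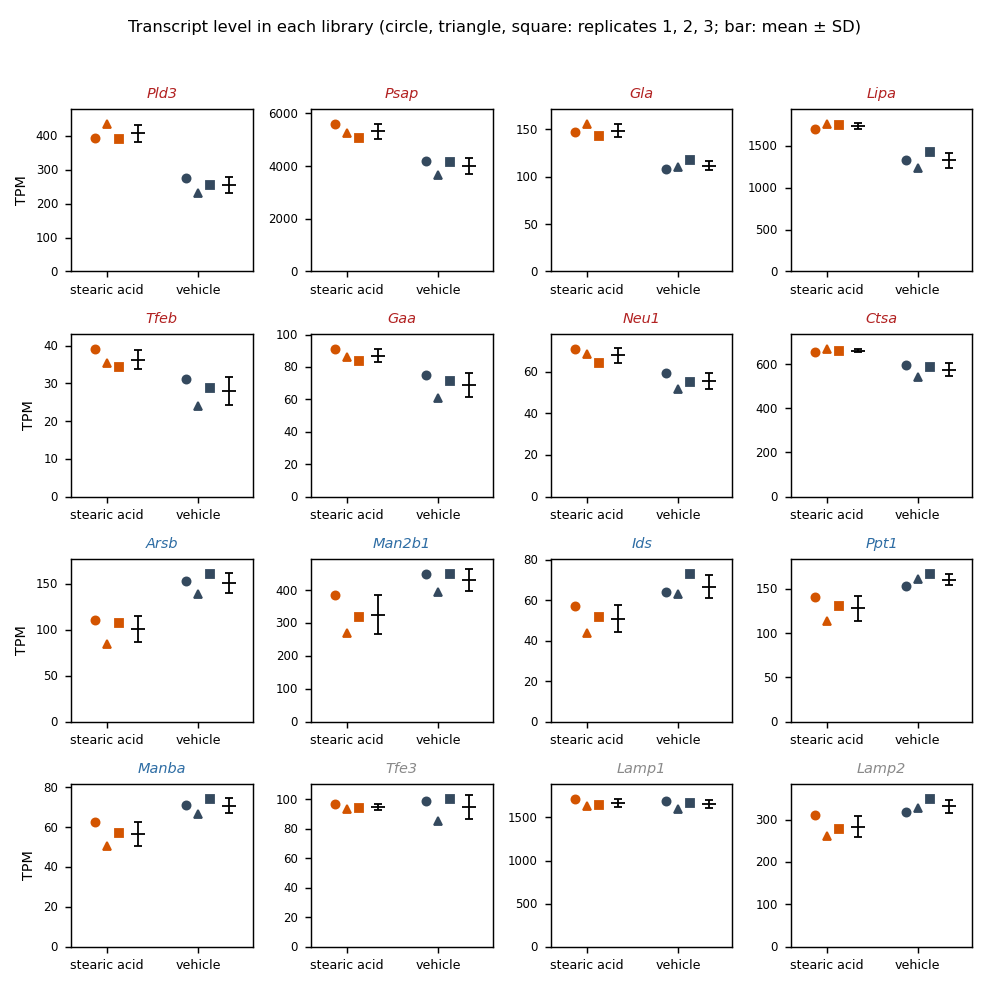
TPM in each library (points; circle, triangle and square for replicates 1, 2 and 3; vertical axes from 0) with mean ± SD beside them, for the 13 lysosomal genes that passed and for Tfe3, Lamp1 and Lamp2. The groups are apart in the first 13 panels, and in the 5 fallers stearic acid replicate 1 (circle) is the nearest to vehicle.

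The promoters of the members were searched for the letters CACGTG, the E-box core, for TCACGTGA, which contains it, and for the 10-base palindrome that adds G before and C after it, close to the element that TFEB and TFE3 bind. Each reads the same on both strands, so 1 search covers both, and each longer one also counts as the shorter. Windows of 250 bases before to 50 bases after annotated start sites were taken from RefSeq sequences of GRCm38.p6 and covered 34 of the 37 genes (not Galns, Aga or Npc1). CACGTG was present for 11 of 34 members (32.4%), against 8.09% of all 27025 genes with a window and 12.2% of the 9335 of them that were tested here. TCACGTGA was present for 4 members (11.8%), against 1.12% of all genes and 2.39% of those tested, and the 10-base form for 1, Cln3 (2.94%), against 0.37% and 0.878%. Some members have several windows. Of the members' 41 windows 26.8% held CACGTG, against 7.15% of all windows and 10.3% of those of tested genes. A match is a description of the sequence and not a site shown to be bound.

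The risers Gla, Ctsa and Gaa hold the E-box core, and Lamp1, whose level differed by less than its SD, holds the most copies. Their whole windows are shown 5′ to 3′ on the strand of the gene, with TCACGTGA, or CACGTG where the flanks differ, in capitals.
Gla (chrX:134600956-134601255, minus strand): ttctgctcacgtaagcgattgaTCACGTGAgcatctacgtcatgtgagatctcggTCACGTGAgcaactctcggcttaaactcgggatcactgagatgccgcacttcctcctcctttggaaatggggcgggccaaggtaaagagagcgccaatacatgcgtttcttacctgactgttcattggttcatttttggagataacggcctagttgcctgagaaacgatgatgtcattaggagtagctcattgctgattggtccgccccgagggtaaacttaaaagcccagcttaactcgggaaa
Ctsa (chr2:164833523-164833822, plus strand): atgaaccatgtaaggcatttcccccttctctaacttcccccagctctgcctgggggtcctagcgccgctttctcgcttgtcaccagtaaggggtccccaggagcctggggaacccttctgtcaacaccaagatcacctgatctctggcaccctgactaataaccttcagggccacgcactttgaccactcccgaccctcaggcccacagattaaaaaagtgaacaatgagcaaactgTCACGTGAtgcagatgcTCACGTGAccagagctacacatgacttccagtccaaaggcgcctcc
Gaa (chr11:119267713-119268012, plus strand): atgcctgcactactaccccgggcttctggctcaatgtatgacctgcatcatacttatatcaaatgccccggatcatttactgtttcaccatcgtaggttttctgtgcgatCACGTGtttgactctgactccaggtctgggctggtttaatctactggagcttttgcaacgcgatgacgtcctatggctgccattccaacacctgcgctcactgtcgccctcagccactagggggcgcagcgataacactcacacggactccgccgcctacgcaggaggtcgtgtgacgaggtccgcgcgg
Lamp1 (chr8:13158911-13159210, plus strand): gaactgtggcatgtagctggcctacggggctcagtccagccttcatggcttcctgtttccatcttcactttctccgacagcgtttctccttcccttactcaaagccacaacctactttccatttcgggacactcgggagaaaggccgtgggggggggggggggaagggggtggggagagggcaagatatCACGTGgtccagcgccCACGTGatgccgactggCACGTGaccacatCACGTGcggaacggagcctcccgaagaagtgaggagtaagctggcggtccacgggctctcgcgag
In Gla the 2 cores begin 227 and 194 bases before the start site. The Ctsa window belongs to an internal start site, 901 bases inside the gene, with 1 core beginning 12 bases before it and the other just after it, and the window at the gene's 5′ end held none. The cores of Lgmn and Cln3 likewise lie at start sites 636 and 2581 bases inside the gene. In Gaa the core begins 140 bases before the start site, and in Lamp1 the 4 cores begin 61, 45, 28 and 15 bases before it. The remaining members with a core other than Cln3, none of which passed, are shown as 36 bases around 1 core each, with the longest of the searched forms in capitals.
Mcoln1 (chr8:3500459-3500494, plus strand): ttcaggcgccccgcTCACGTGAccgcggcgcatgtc
Naglu (chr11:101070006-101070041, plus strand): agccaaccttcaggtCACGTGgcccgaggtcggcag
Glb1 (chr9:114401015-114401050, plus strand): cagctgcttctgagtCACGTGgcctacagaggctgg
Sgsh (chr11:119355519-119355554, minus strand): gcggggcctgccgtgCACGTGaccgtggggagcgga
Arsa (chr15:89477420-89477455, minus strand): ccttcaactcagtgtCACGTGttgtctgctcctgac
Lgmn (chr12:102439121-102439156, minus strand): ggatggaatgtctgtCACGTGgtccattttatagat
Mcoln1 and Cln3 hold the 8-base form without passing in expression.

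Set beside the expression values, the 11 members with a core held 3 risers, 0 fallers and 8 that did not pass, and their log2 fold changes ran from -0.49 (Sgsh) to 0.41 (Gla) with a median of 0.04. The 23 members with a window and no core held 5 risers, 5 fallers and 13 that did not pass, from -0.58 (Arsb) to 0.68 (Pld3) with a median of -0.03. For the fallers Ids and Man2b1 the only window lies at a start site 20749 and 539 bases inside the gene. The 5′ ends of these genes were therefore not searched, and whether they hold a core is not known here. The split of calls depended on the fit: Sgsh and Lgmn, which hold a core, passed as lower without stearic acid replicate 1 (limma adjusted p = 0.00011 and 0.00073) and with a replicate block (0.0074 and 0.022), and Ctsa did not pass with the block (0.060). Tfeb, Tfe3, Psap, Lipa and Pld3 had no core in these windows, and no test of a difference between the 2 sets was made.

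**Figure D4:**
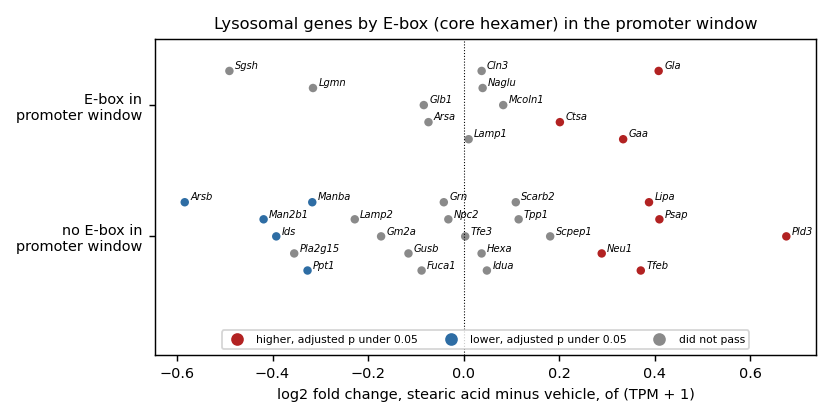
Log2 fold change of (TPM + 1), stearic acid minus vehicle (horizontal axis), of the 34 lysosomal genes with a promoter window, split by whether a window holds the E-box core; colours mark genes that rose (red), fell (blue) or did not pass (grey). Both rows span 0, from -0.49 to 0.41 with a core and from -0.58 to 0.68 without, and the 5 fallers with all 6 libraries are in the row without a core, while Sgsh and Lgmn, in the row with a core, also passed as lower without stearic acid replicate 1. Of the 5 fallers, Ids and Man2b1 have only a window inside the gene, so their 5′ ends were not searched.

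Other genes of the lysosome were read from 6 lists of 112 genes, of which 107 were tested. Of these 34 rose and 7 fell (31.8% and 6.54%, against 12.8% and 11.9% of all tested genes), with a median log2 fold change of 0.05. For the counts at an unadjusted limma p under 0.05 given below, 4671 of all 11551 tested genes had such a p in either direction. The falls numbered 24 without stearic acid replicate 1, a fit in which 24.2% of all genes were lower, and the rises numbered 17 without vehicle replicate 3, where 4.19% of all genes were higher. Subunits of the proton pump that acidifies the lysosome gave 9 rises among 17 and 0 falls (limma; 0 falls at an unadjusted p under 0.05), led by Atp6v0d2 (log2 1.67, limma adjusted p = 0.00028), at 72.2, 94.4 and 81.3 TPM with stearic acid against 30.3, 21.3 and 24.6 TPM with vehicle, and Atp6v1c1 (log2 0.49). All 17 pump subunits had a positive log2 fold change, from 0.08 to 1.67, whereas 20 of the 37 members had. The rises of the pump numbered 5 on dropping stearic acid replicate 3, and 4 and 3 on dropping vehicle replicates 2 and 3. In those fits 5.05, 3.32 and 4.19% of all genes were higher.

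Cathepsins, the lysosomal proteases, went both ways as the members did: 5 of 11 tested rose (45.5%) and 3 fell (27.3%). Of all tested genes 12.8% were higher and 11.9% lower. The rises numbered 3 on dropping stearic acid replicate 3, and 3 and 2 on dropping vehicle replicates 1 and 3. In those fits 5.05, 5.96 and 4.19% of all genes were higher. Ctsk, a collagen-degrading protease, was at 15.2, 23.4 and 19.7 TPM with stearic acid against 7.40, 6.09 and 6.81 TPM with vehicle (log2 1.38, limma adjusted p = 0.00094), and Ctsz rose by log2 0.54. Ctsc, which activates granule proteases, fell by 0.53 on the log2 scale (limma adjusted p = 0.0058). The falls of Ctsf and Ctsh, at limma adjusted p of 0.049 each, were lost on dropping any library but stearic acid replicate 1.

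Of 24 further hydrolases tested, 5 rose and 4 fell (20.8 and 16.7%, against 12.8 and 11.9% of all tested genes). Hyal1, a hyaluronidase, was at 9.46, 13.2 and 11.3 TPM with stearic acid against 5.66, 5.47 and 5.09 TPM with vehicle (log2 0.94, limma adjusted p = 0.0020), and Acp5, an acid phosphatase, rose by log2 0.56. Rnaset2a, an acid ribonuclease, fell by 0.29 on the log2 scale (limma adjusted p = 0.019), a call lost on dropping any vehicle library. The falls of the further hydrolases numbered 11 without stearic acid replicate 1 and 1 without any 1 vehicle library. Of all genes 24.2% were lower without stearic acid replicate 1, and 3.34, 1.43 and 1.18% without vehicle replicates 1, 2 and 3.

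Of 27 further membrane proteins tested, 10 rose (37%, against 12.8% of all tested genes) and 0 fell with limma. At an unadjusted limma p under 0.05, 4 were lower. Without stearic acid replicate 1, 6 fell, in a fit where 24.2% of all genes were lower. The rises numbered 6 on dropping vehicle replicate 3, where 4.19% of all genes were higher. Gpnmb, a glycoprotein of phagosomes and lysosomes, was at 3346, 3718 and 3326 TPM with stearic acid against 1895, 1639 and 1707 TPM with vehicle (log2 0.99, limma adjusted p = 0.00028). Slc11a1, a divalent metal transporter of phagosomes, rose by log2 0.77, and the members' own membrane class held no gene that passed. Of the 7 genes of hydrolase targeting only Gnptab, a subunit of the enzyme that makes the mannose phosphate tag, rose (log2 0.32), a call lost on dropping stearic acid replicate 3 or any vehicle library (limma adjusted p up to 0.081). Of 21 genes of nutrient sensing at the lysosomal surface 4 rose and 0 fell (limma; 0 were lower at an unadjusted p under 0.05, and 1 fell without stearic acid replicate 1), among them the Rag GTPase genes Rragd (log2 0.65, limma adjusted p = 0.0039) and Rraga (log2 0.37). These rises were 19% of the list, against 12.8% of all tested genes. They numbered 2 on dropping vehicle replicate 2, where 3.32% of all genes were higher.

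**Figure D5:**
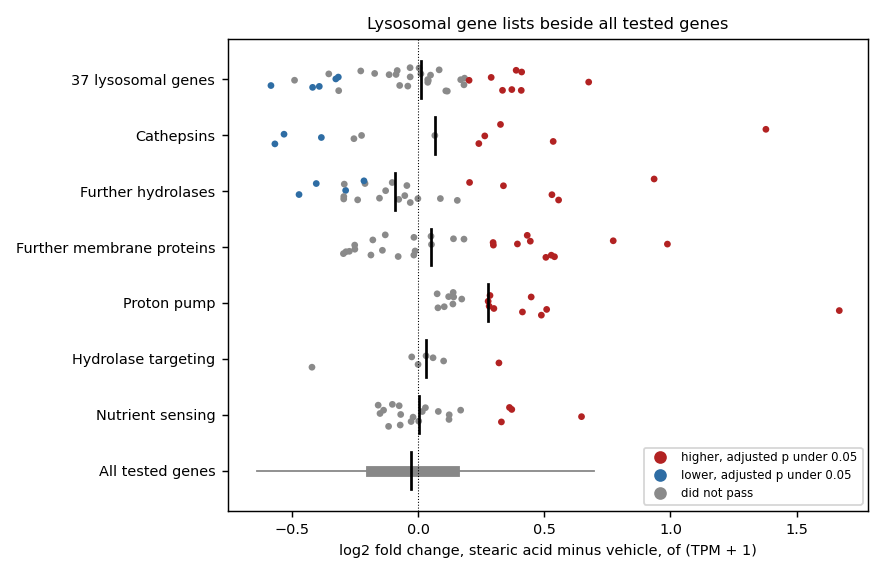
Log2 fold change of (TPM + 1), stearic acid minus vehicle, of each tested gene (points) in the 37 lysosomal genes and 6 further lists, with list medians as black bars; the bottom row gives all tested genes as median, middle 50% (thick line) and middle 95% (thin line). The proton pump median is 0.28, the members' is 0.01 and that of all tested genes is -0.03.

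The members lay on 16 chromosomes, and the pair closest together was Gaa and Sgsh on chromosome 11, 58031 bases apart, of which Gaa rose and Sgsh did not pass. Among members that passed, an annotated protein-coding gene overlapped Ctsa and Ppt1. Arsb and Manba overlapped a miRNA gene and a pseudogene, and the other 9 overlapped no annotated gene.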

How the data were processed

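RNA of mouse bone marrow derived macrophages was made into 3 stearic acid and 3 vehicle libraries with a stranded mRNA kit, per the labels' protocols. The submitters' processing notes name DRAGEN and the builds GRCm38 and mm10; the annotation, the counting rule and its use of strand are not given in these sources. The deposited files hold, per the file headers, TPM and RPKM for each gene, as computed by the authors, and no counts; TPM summed to 1e+06 in each library. Depth was estimated from steps of the deposited RPKM values of small non-coding genes, as the value within a preset range that brought them closest to whole counts. At that value 92.0 to 95.5% of them came out whole within 0.02. The depth was chosen to make them whole, so that share is not a separate check.

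log2(TPM + 1) of genes averaging 1 TPM or more was fitted with limma 3.58.1 (R 4.3.3, trend), without a replicate block, and p-values were adjusted by Benjamini-Hochberg over all 11551 genes. Since 1 TPM was added before the log, fold changes of weakly expressed genes are understated. The code was tested on simulated data. A count model was not run because the files hold no counts. Alternatives were another pseudocount (0.1), no filter, a filter at 5 TPM, RPKM, median-of-ratios scaling, quantile normalization, a replicate block and leaving out each library.

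The members and the other lists were chosen with earlier results of these data known. All members are accounted for, with every library's value for those that passed and for Tfeb and Tfe3; in each other list the 2 genes that passed with the smallest p are named, and up to 2 in the rarer direction. One gene that this rule names is not reported here. Other genes named with values (among them Ctsh, Mitf and Tfec) were chosen after their values were seen. Gene positions, overlaps and promoter sequences are from RefSeq, GRCm38.p6.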

Additional observations from a re-analysis of the deposited data

How the results depend on the processing

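No member that passed changed direction in any of the 13 alternatives, and 9 that did not pass did in at least 1. Of 481 member fits under alternatives 422 kept their side of the threshold, 45 lost a call and 14 gained one. Pld3, Gla and Lipa passed in all 13.

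Without the filter on low values, which tests 21632 genes, 3 members were higher and 1 lower, 672 and 355 of all genes were, and the falls of the other lysosomal lists numbered 4; with RPKM these falls also numbered 4. Leaving out 1 library at a time gave 4 to 9 members higher and 0 to 10 lower, 384 to 2217 of all genes higher and 136 to 2796 lower, and 17 to 36 genes of the other lists higher and 2 to 24 lower. The fit with a replicate block gave 7 members higher, without Ctsa, 8 lower, with Sgsh, Pla2g15 and Lgmn added, and 17 falls in the other lists. In that fit 18.9% of the members were higher and 21.6% lower, against 14.2 and 17.3% of all genes. Same-numbered libraries correlated by 0.0703, 0.288 and 0.0387 in their deviations from group means, and stearic acid replicates 1 and 3 correlated best with another number, so the numbers were not taken as pairs. The cause of these shifts was not tested. The fit without the filter also tests more genes, and the fits that leave out a library also have fewer libraries. With 3 libraries a group, changes as small as that of Ctsa sit at the threshold.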
